A study of Homo sapiens with 24 samples.

Results

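Most histone genes are read only in S phase, but a small set is transcribed throughout the cell cycle. The 9 genes described here are the replication-independent histone variants H2AZ1, H2AZ2, H2AX, H2AJ, H3-3A, H3-3B, H1-10, MACROH2A1 and MACROH2A2. The rule lists them by symbol and uses no measured value, and the set was drawn up with earlier results of these data known. All 9 had a row among the 14585 genes of the count table, and all 9 passed the filter on low counts in both cell lines. RNA was sequenced from A549 cells, a human lung carcinoma line, and Huh7 cells, a human hepatocellular carcinoma line, both labelled wild type. Each line was kept as control or given an extract of Pulsatilla chinensis (P. chinensis), Bupleurum chinense (B. chinense) or Polyporus umbellatus (P. umbellatus), with 3 libraries per group and 24 in all. The dose and duration of treatment of the sequenced cells and the vehicle of the controls are not given in the sources used here, nor is it said that replicates were separate cultures, so p-values measure only the spread between these libraries. The kit removed ribosomal RNA from total RNA without selecting poly(A) tails. Libraries summed to 6803704 to 24345541 counts. ALB, AFP and APOB were high in Huh7 cells. KRT7 was high in A549 cells, whereas KRT8 was high in both lines, at 3197 to 3860 CPM (TMM-scaled counts relative to the library total) in A549 and 1391 to 3792 in Huh7 cells. The lung marker SFTPB was near 0 in both, at 1.01 to 2.70 CPM in A549 and 2.16 to 5.37 in Huh7 cells, and HNF4A, a hepatocyte factor, was at 43.9 to 124 CPM in A549 cells. The lung markers NKX2-1, SFTPA1, SFTPC and NAPSA had no row in the count table.

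Histone variants replace the canonical histones that cells make during DNA replication. H2A.Z, encoded by H2AZ1 and H2AZ2, marks nucleosomes beside promoters and is exchanged by the SRCAP and TIP60 complexes. H2AX is phosphorylated around DNA breaks, H3.3 from H3-3A and H3-3B is laid down outside replication by the HIRA and ATRX-DAXX chaperones, macroH2A carries a large globular domain and is found in repressed chromatin, and H1-10 is a linker histone.

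The genes lie apart from the large histone clusters. On GRCh38, H2AZ1 is at chr4:99948086-99950355 on the minus strand, H2AZ2 at chr7:44826791-44848087 on the minus strand, H2AX at chr11:119093874-119095465 on the minus strand and H2AJ at chr12:14774405-14778002 on the plus strand. H3-3A is at chr1:226061851-226072019 on the plus strand and H3-3B at chr17:75776434-75785893 on the minus strand. H1-10 is at chr3:129314771-129316286 on the minus strand, MACROH2A1 at chr5:135334381-135399914 on the minus strand and MACROH2A2 at chr10:70052544-70112282 on the plus strand. The canonical transcripts of H2AX, H2AJ and H1-10 have 1 exon, and those of the other members have 4 to 9.

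H2AX is the member that also carries the mark of a replication-dependent histone mRNA, the 3′ stem-loop bound by SLBP, followed much further on by a poly(A) signal. Its stem-loop is shown beside that of H2AC14, a replication-dependent H2A gene, with the 16 bases of the stem-loop in capitals.
H2AX: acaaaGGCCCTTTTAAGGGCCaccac
H2AC14: acaaaGGCTCTTTTCAGAGCCacttc
The stem-loop of H2AX starts at base 553 of a transcript of 1592 bases, and 1024 bases follow it. The H2AC14 transcript ends 6 bases after its stem-loop. A stem-loop of this kind was found in 57 of 62 replication-dependent histone transcripts, in 1 of 9 members and in 0.446% of all genes of the table.

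The promoters of 4 members are shown. H2AZ1 and H2AX are 2 of the 6 members that fell with every herb in A549 cells and the only members with a CHR match, while of H3-3A and H3-3B, which encode 1 protein, H3-3A fell there and H3-3B did not pass the test. The sequences are from RefSeq (GRCh38.p14), run across the start of the transcript in the direction of transcription, and hold in capitals every match on either strand to CCAAT, to TTTGAA (the core of the cell cycle homology region, CHR), to GGCGGGA (a core of E2F sites) and to TATAAA. They lie at chr4:99950226-99950525 (H2AZ1, minus strand), chr11:119095416-119095715 (H2AX, minus strand), chr1:226062466-226062765 (H3-3A, plus strand) and chr17:75779730-75780029 (H3-3B, minus strand).
H2AZ1: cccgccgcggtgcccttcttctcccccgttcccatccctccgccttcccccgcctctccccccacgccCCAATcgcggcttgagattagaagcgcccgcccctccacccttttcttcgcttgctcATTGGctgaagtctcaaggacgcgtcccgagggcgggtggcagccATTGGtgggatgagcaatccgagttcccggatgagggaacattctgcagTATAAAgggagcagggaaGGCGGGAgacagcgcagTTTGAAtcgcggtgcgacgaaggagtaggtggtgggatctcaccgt
H2AX: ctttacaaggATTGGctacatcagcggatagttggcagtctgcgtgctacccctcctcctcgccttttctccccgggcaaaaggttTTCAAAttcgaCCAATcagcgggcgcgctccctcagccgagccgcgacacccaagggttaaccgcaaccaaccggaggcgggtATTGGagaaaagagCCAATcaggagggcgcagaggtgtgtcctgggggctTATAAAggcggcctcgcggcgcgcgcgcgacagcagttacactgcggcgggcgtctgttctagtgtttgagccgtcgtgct
H3-3A: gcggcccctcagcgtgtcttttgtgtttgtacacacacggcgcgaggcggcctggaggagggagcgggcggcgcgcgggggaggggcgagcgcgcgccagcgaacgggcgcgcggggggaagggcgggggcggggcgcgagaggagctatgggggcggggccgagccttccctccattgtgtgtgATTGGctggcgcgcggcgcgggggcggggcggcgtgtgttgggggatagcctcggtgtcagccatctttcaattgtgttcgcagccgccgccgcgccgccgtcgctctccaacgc
H3-3B: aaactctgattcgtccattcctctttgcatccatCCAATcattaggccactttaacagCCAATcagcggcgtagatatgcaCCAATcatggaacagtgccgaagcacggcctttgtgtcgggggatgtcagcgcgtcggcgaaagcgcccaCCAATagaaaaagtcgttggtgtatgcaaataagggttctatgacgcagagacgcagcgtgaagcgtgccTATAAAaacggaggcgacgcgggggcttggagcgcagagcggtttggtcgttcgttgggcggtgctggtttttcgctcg
The H2AZ1 window held 3 CCAAT matches, 1 CHR match at position 5, 1 E2F core match and 1 TATA match. H2AX held 4 CCAAT, 1 CHR and 1 TATA match, and H3-3B held 4 CCAAT matches and 1 TATA match, whereas H3-3A held 1 CCAAT match only. No match overlapped another in these 4 windows. Of the other members that fell with every herb in A549 cells, H2AZ2 held 4 CCAAT matches and no other, H1-10 held 1 E2F core and 1 TATA match, and MACROH2A1 held none. Among 34796 promoters of this length, 34.6% held CCAAT, 15.2% the CHR core, 15.3% the E2F core and 11.6% TATAAA. A match is a string of letters and was not tested for binding.

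H3-3A and H3-3B encode the same protein and H2AZ1 and H2AZ2 nearly the same one, from diverged DNA, while the macroH2A genes encode related proteins. Protein sequences were not compared here. The coding sequences of H3-3A and H3-3B were identical at 320 of 408 bases (78.4%), those of H2AZ1 and H2AZ2 at 309 of 384 (80.5%) and those of MACROH2A1 and MACROH2A2 at 754 of 1116 (67.6%). The kallisto estimates must also share reads with copies elsewhere. Of the 31-base words of the H3-3A transcript, 76.8% occurred in transcripts of other genes, 20 of those 22 genes being pseudogenes, so its counts are uncertain in level. The share was 22.8% for H2AZ1, 17.0% for H2AZ2 (with 2860 genes), 14.2% for H3-3B (all with H3-5), 3.97% for H2AX, 3.22% for H2AJ and 0 for H1-10 and both macroH2A genes.

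In control cells the order of levels was set by H2AZ1 and H3-3A at the top and MACROH2A2 at the bottom. Levels between genes were compared as CPM per kilobase of the canonical transcript. In A549 cells H2AZ1 had 338 ± 11.4 (SD, n = 3) and H3-3A 283 ± 9.97 CPM per kilobase, followed by H2AX at 91.6 ± 5.14, H2AZ2 at 83.6 ± 1.76, H3-3B at 81.8 ± 1.96 and MACROH2A1 at 72.3 ± 1.04. H1-10 followed at 56.2 ± 2.14, H2AJ at 30.5 ± 4.54 and MACROH2A2 at 10.3 ± 1.54. The ranges of H2AZ2 and H3-3B overlapped in A549 cells, and every other pair of neighbours was apart. In Huh7 cells H2AZ1 had 375 ± 14.6 and H3-3A 293 ± 8.64, and H2AZ2 (121 ± 4.80), H3-3B (113 ± 2.64), H2AX (93.2 ± 9.01), MACROH2A1 (37.6 ± 1.14), H1-10 (24.8 ± 3.36), H2AJ (13.4 ± 1.71) and MACROH2A2 (3.44 ± 0.391) followed. The ranges of H2AZ2, H3-3B and H2AX did not overlap there. The level of H2AX depends on the length used, being 257 in A549 cells and 261 in Huh7 cells if transcripts end at the stem-loop, 568 bases from the start.

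**Figure D1:**
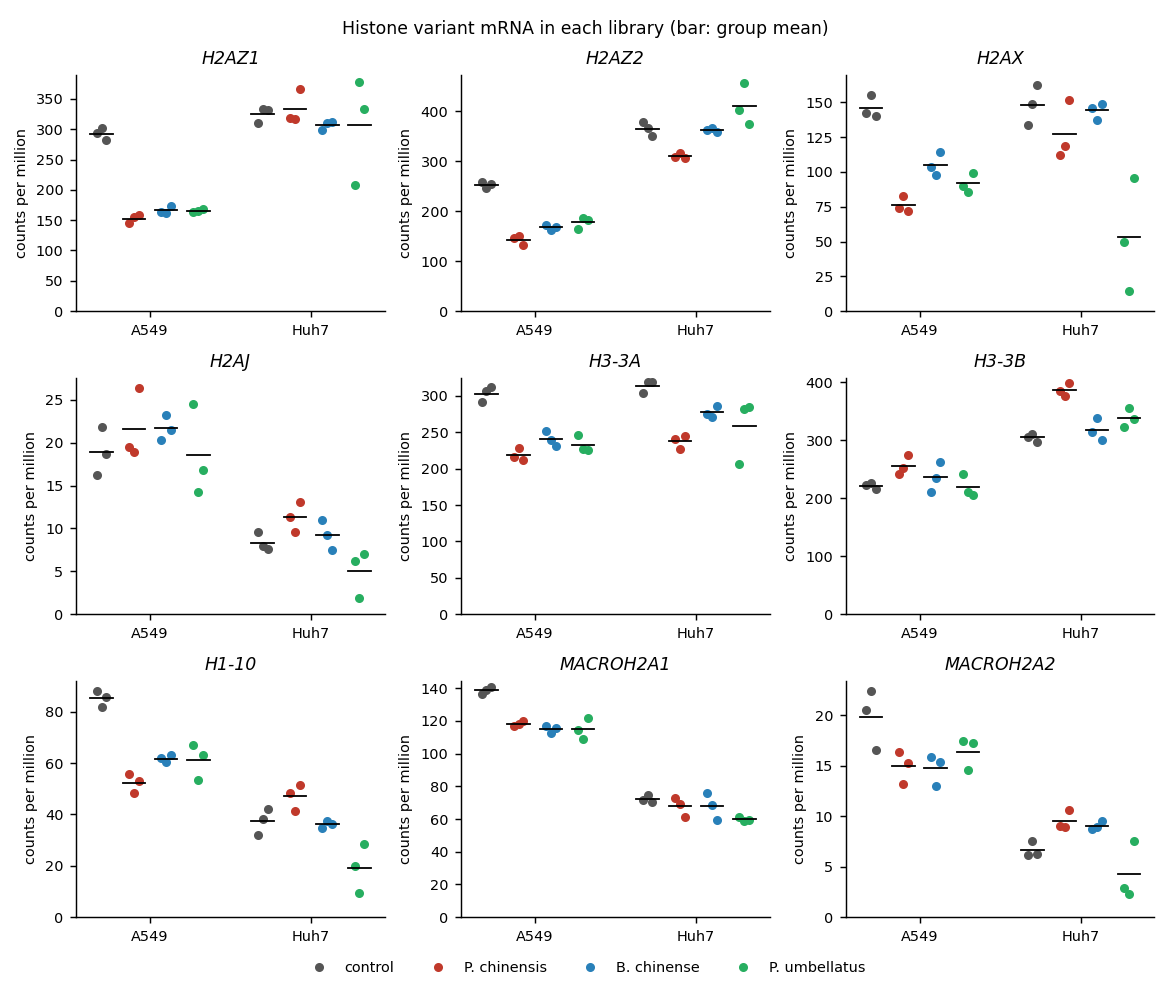
CPM of each of the 9 genes (y axis, from 0) in each library, by cell line (x axis) and treatment (colour), with a bar at the mean of 3 libraries. In A549 cells H2AZ1, H2AZ2, H2AX, H3-3A, H1-10 and MACROH2A1 sat lower in every treated library than in any control library, while in Huh7 cells the P. umbellatus libraries spread widely for H2AX, H1-10 and H2AZ1.

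Untreated A549 and Huh7 cells differed in 6 of 9 variants, 4 higher and 2 lower in A549 cells, beside 68.7% of the 12924 genes tested in both lines (33.8% higher, 34.9% lower). The macroH2A genes, H2AJ and H1-10 were higher in A549 cells, by 1.58 ± 0.238 (log2 ± SE) for MACROH2A2, 1.19 ± 0.262 for H2AJ, 1.18 ± 0.190 for H1-10 and 0.95 ± 0.072 for MACROH2A1. H2AZ2 (-0.53 ± 0.067) and H3-3B (-0.46 ± 0.073) were lower. The adjusted p of these 6 genes was at most 0.000382 (Benjamini-Hochberg adjustment of edgeR's quasi-likelihood test, the source of every adjusted p below unless another is named). H2AZ1, H2AX and H3-3A did not pass the test.

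In A549 cells most variants were lower with each herb. With P. chinensis 7 of 9 genes fell and 0 rose, beside 32.8% of all genes called, 17.1% lower and 15.8% higher. For B. chinense 7 fell and 0 rose, beside 28.1% of all genes (15.0% lower, 13.1% higher). P. umbellatus gave 6 lower and 0 higher, beside 28.2% of all genes (14.8% lower, 13.4% higher). With GC content and transcript length corrected for in every library, all 9 members passed with P. chinensis, 7 lower and 2 higher. The median log2 fold change of the 9 genes was -0.47, -0.43 and -0.38, and that of all genes was 0.014, -0.0019 and -0.012. In each line the 3 comparisons share the control libraries and are not independent.

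H2AZ1 fell furthest on the log2 scale with B. chinense and P. umbellatus. It was at 293, 302 and 283 CPM in the control libraries of A549 cells, 145, 155 and 158 under P. chinensis, 163, 162 and 174 under B. chinense and 163, 165 and 168 under P. umbellatus. Every treated library was below every control library, and the herbs lay close together. The log2 fold changes were -0.94 ± 0.049 (SE, adjusted p = 4.49e-09), -0.82 ± 0.049 (4.03e-08) and -0.82 ± 0.048 (3.51e-08), which are changes of -47.8%, -43.3% and -43.5%. In bulk RNA, a lower level per cell and fewer cells that make the transcript cannot be told apart.

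H2AZ2, the second H2A.Z gene, fell with it. Its levels were 258, 247 and 254 CPM in control, 146, 149.7 and 132 under P. chinensis, 172, 162 and 169 under B. chinense and 163, 186 and 182 under P. umbellatus. The P. chinensis libraries were the lowest and no treated library reached the controls. The log2 fold change was -0.83 ± 0.060 (adjusted p = 1.09e-07), -0.59 ± 0.060 (5.17e-06) and -0.51 ± 0.059 (1.63e-05).

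H2AX, the variant that marks DNA breaks once phosphorylated, was at 142, 155 and 139.9 CPM in control A549 cells. It was at 74.3, 82.4 and 71.6 CPM under P. chinensis, 104, 97.5 and 114 under B. chinense and 90.1, 85.8 and 99.6 under P. umbellatus. None of the treated groups overlapped control, and the P. chinensis libraries were the lowest. The fold changes were -0.94 ± 0.077 (adjusted p = 3.55e-07), -0.48 ± 0.076 (0.000294) and -0.67 ± 0.075 (1.27e-05) on the log2 scale. H2AJ, an H2A variant known from senescent cells, was low throughout, at 16.2 to 21.8 CPM in control and 14.3 to 26.4 in treated A549 cells, with overlapping groups and log2 fold changes of 0.19, 0.19 and -0.017 that did not pass the test. After the GC and length correction H2AJ passed with P. chinensis (0.45, adjusted p = 0.0351).

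Of the H3.3 genes H3-3A alone passed the test in A549 cells. H3-3A was at 291, 307 and 312 CPM in control A549 cells, 216, 228 and 212 under P. chinensis, 252, 239 and 232 under B. chinense and 247, 227 and 225 under P. umbellatus. All 9 treated libraries were below the 3 controls, and the log2 fold changes were -0.47 ± 0.052 (adjusted p = 6.89e-06), -0.33 ± 0.052 (0.000249) and -0.38 ± 0.051 (6.93e-05). The GC and length correction brought the B. chinense value to -0.17 (adjusted p = 0.0406) and the P. umbellatus value to -0.21 (0.0103). H3-3B was at 222, 226 and 216 CPM in control, 242, 252 and 274 under P. chinensis, 210.4, 235 and 262 under B. chinense and 242, 211 and 205 under P. umbellatus. The P. chinensis libraries all lay above control, yet the fold change of 0.21 ± 0.078 missed the threshold (adjusted p = 0.0535), and with the other herbs the groups overlapped. H3-3B passed with P. chinensis in 9 of 21 alternatives, among them DESeq2 (0.21, adjusted p = 0.0284), the GC and length correction (0.28, 0.00817) and fits without P. chinensis replicate 1, B. chinense replicate 1 or 3 or P. umbellatus replicate 1 (0.0324 to 0.0478).

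H1-10, the linker histone, and MACROH2A1 fell with every herb in A549 cells. H1-10 was at 88.2, 81.7 and 85.7 CPM in control, 55.8, 48.3 and 53.1 under P. chinensis, 61.8, 60.5 and 63.0 under B. chinense and 67.2, 53.2 and 63.2 under P. umbellatus, and no treated library reached the controls. Its log2 fold changes were -0.70 ± 0.085 (adjusted p = 1.80e-05), -0.46 ± 0.085 (0.000903) and -0.47 ± 0.084 (0.000663). MACROH2A1 ranged from 137 to 141 CPM in control and from 109 to 122 in the 9 treated libraries, a small shift without overlap, with log2 fold changes of -0.23 ± 0.049 (adjusted p = 0.00246), -0.27 ± 0.050 (0.001) and -0.27 ± 0.049 (0.000836).

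MACROH2A2 was the least certain. It was at 20.5, 22.4 and 16.6 CPM in control, 16.4, 13.2 and 15.3 under P. chinensis, 15.9, 12.96 and 15.3 under B. chinense and 17.4, 14.6 and 17.2 under P. umbellatus. The groups with P. chinensis and B. chinense lay just below control and that with P. umbellatus overlapped it. The log2 fold changes were -0.41 ± 0.148 (adjusted p = 0.0468), -0.43 ± 0.149 (0.0447) and -0.27 ± 0.146 (0.189). Either call was lost with DESeq2 (adjusted p = 0.0589 for both) and without any 1 of 8 of the 12 libraries, the highest adjusted p being 0.194 for P. chinensis and 0.182 for B. chinense, both without control replicate 2.

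**Figure D2:**
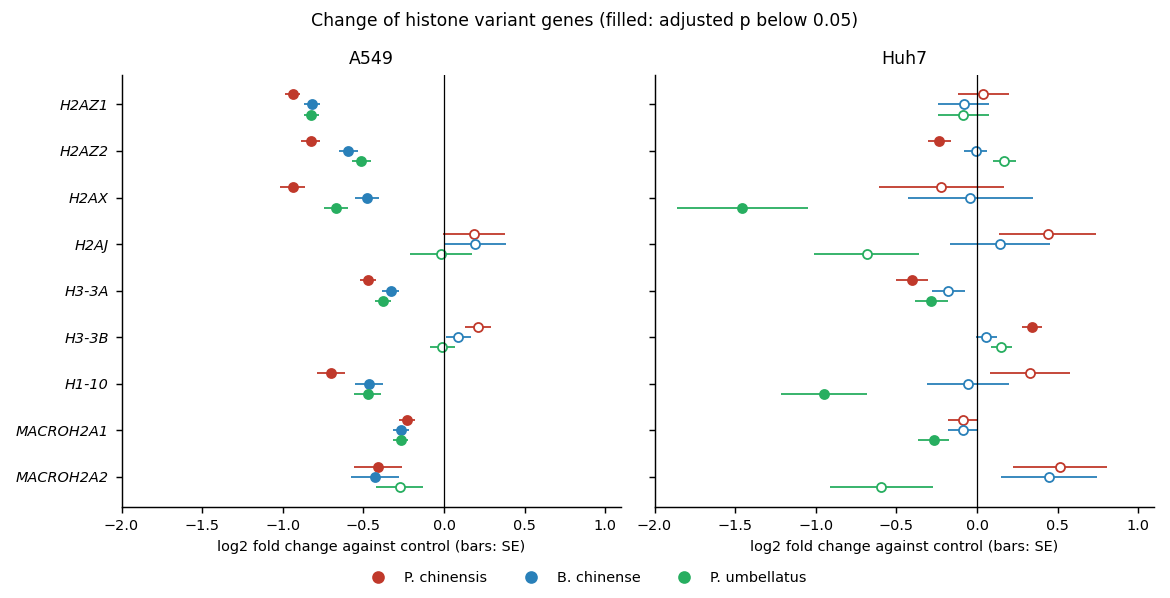
Log2 fold change against control (x axis, bars show the SE) of the 9 genes (y axis) for each herb in A549 (left) and Huh7 cells (right), filled where the adjusted p was below 0.05. In A549 cells the herbs lie close together for most genes, and in Huh7 cells the H2AX and H1-10 values with P. umbellatus stand far below 0 with wide errors.

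With P. chinensis 2 variants were lower than in the mean of the other herbs in A549 cells, beside 3.57% of all genes that differed (1.15% higher, 2.42% lower). These were H2AX (-0.36 ± 0.068, adjusted p = 0.0106) and H2AZ2 (-0.27 ± 0.053, 0.0119). Without P. chinensis replicate 3 the values were -0.32 (adjusted p = 0.0851) and -0.21 (0.0952), and no member passed.

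Huh7 cells gave another picture. With P. chinensis 1 variant rose and 2 fell, beside 20.9% of all genes, 10.5% in each direction, and the median of the 9 was 0.038. H3-3B was at 306, 311 and 297 CPM in control and 384, 377 and 398 with P. chinensis, so that all 3 treated libraries were higher, and it rose by 0.34 ± 0.063 (adjusted p = 0.00216). H3-3A was at 303, 319.6 and 319 CPM in control and 241, 227 and 244 with P. chinensis, all 3 lower, and its log2 fold change was -0.40 ± 0.101 (adjusted p = 0.0137; 0.0511 without P. chinensis replicate 2 and 0.0502 without control replicate 3).

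H2AZ2 was at 379, 367 and 350.0 CPM in control and 308, 317 and 307 with P. chinensis in Huh7 cells, groups that did not overlap. Its log2 fold change was -0.23 ± 0.071 (adjusted p = 0.0357), and leaving out any 1 of these 6 libraries gave adjusted p from 0.0514 to 0.13. The H2AZ2 call was lost in 7 of 21 alternatives. The fit also holds the libraries of the other herbs. Without P. umbellatus replicate 2 the adjusted p was 0.000929 for H2AZ2, 0.00313 for H3-3A and 0.000149 for H3-3B, and 3 members passed. H2AZ1 overlapped control, at 311 to 334 CPM in control and 317 to 367 with P. chinensis. H2AX (-0.22), H2AJ (0.44), H1-10 (0.33) and MACROH2A1 (-0.088) did not pass the test either. H1-10 passed after the GC and length correction (0.45, adjusted p = 0.00295), with limma voom (0.0309) and in a fit of the 6 libraries alone (0.0396), and H2AJ in the last pair of these (0.0269 and 0.0417). MACROH2A2 was at 6.17, 7.52 and 6.26 CPM in control and 8.99, 8.91 and 10.6 with P. chinensis, above control in each library. Its log2 fold change was 0.51 ± 0.292 (adjusted p = 0.25), and 0.51 with an adjusted p of 0.0141 in a fit of the 6 libraries alone. It passed as well with limma voom (0.00684) and without P. umbellatus replicate 3 (0.0235).

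With B. chinense 0 of 9 variants passed the test in Huh7 cells, beside 1.28% of all genes (0.519% higher, 0.757% lower). None had an unadjusted p under 0.05 with edgeR, and DESeq2 and limma voom called 0 as well. The groups did not overlap for H3-3A, at 276, 270.5 and 287 CPM, and MACROH2A2, at 8.75, 8.90 and 9.50 CPM. The share of all genes without overlap was not counted, so this is a description only. The log2 fold changes were -0.18 ± 0.101 and 0.45 ± 0.299, and those of the other 7 members ran from -0.082 (H2AZ1) to 0.14 (H2AJ). In a fit of the 6 libraries alone H3-3A passed (adjusted p = 0.0214).

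With P. umbellatus 4 variants fell and 0 rose in Huh7 cells, beside 37.0% of all genes (17.8% lower, 19.3% higher). H2AX was at 134, 149 and 163 CPM in control and 49.7, 14.3 and 95.6 with P. umbellatus, and H1-10 at 32.1, 38.3 and 42.2 and 19.8, 9.22 and 28.4. In both genes replicate 2 was by far the lowest and replicate 3 the closest to control. The log2 fold changes were -1.46 ± 0.407 (adjusted p = 0.0166) for H2AX and -0.95 ± 0.265 (0.0165) for H1-10. H3-3A, at 207, 282 and 285 CPM, had -0.28 ± 0.101 (0.0447), and MACROH2A1, at 61.1, 59.1 and 59.4 CPM, had -0.27 ± 0.095 (0.042).

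The other 5 variants did not pass with P. umbellatus in Huh7 cells. H2AZ2 was at 401, 457 and 374 CPM (0.17 ± 0.071) and H3-3B at 322, 355 and 337 CPM (0.15 ± 0.063), and all of the H3-3B libraries were above control. H2AZ1 spread from 208 to 378 CPM, on both sides of control (-0.084 ± 0.159). The low-count variants H2AJ, at 6.23, 1.87 and 7.06 CPM, and MACROH2A2, at 2.93, 2.30 and 7.55 CPM, were lowest in replicate 2, and without replicate 3 both passed, with -1.01 (adjusted p = 0.0408) and -1.33 (0.000458).

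These P. umbellatus libraries stood apart by base composition. For genes of at least 60% GC the median log2 difference from the control mean was -0.59, -1.28 and -0.38 in replicates 1, 2 and 3, and for genes of at most 40% GC it was 0.25, 0.58 and 0.19. The other Huh7 libraries lay between -0.11 and 0.020 for the first set and between -0.0023 and 0.033 for the second. H2AX (66.8% GC), H1-10 (68.6%) and H2AJ (63.1%) are the GC-rich members, and the other 6 have 42.8% to 52.9%. With GC content and transcript length corrected for in every library, H2AX had -0.53 (adjusted p = 0.0827), H1-10 0.15 (0.359) and MACROH2A1 -0.17 (0.195), while H3-3A had -0.40 (0.00199) and was the 1 member left.

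Single libraries also moved these values. Without P. umbellatus replicate 2, H2AX was at -1.02 (adjusted p = 0.00309) and H1-10 at -0.63 (0.00946), and without replicate 3, H2AX was at -2.19 (0.000515). H3-3A was at -0.15 (0.0811) without replicate 1, the library in which H3-3A and H2AZ1 were lowest. The MACROH2A1 call was lost without any 1 of the 6 libraries compared, with adjusted p from 0.0609 to 0.0904. The H3-3A call was lost without any 1 control library, with 0.0737 to 0.11, and without P. chinensis replicate 3 (0.0604). H1-10 was lost without control replicate 3 (0.0574). In a fit of the 6 libraries alone 0 members passed.

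**Figure D3:**
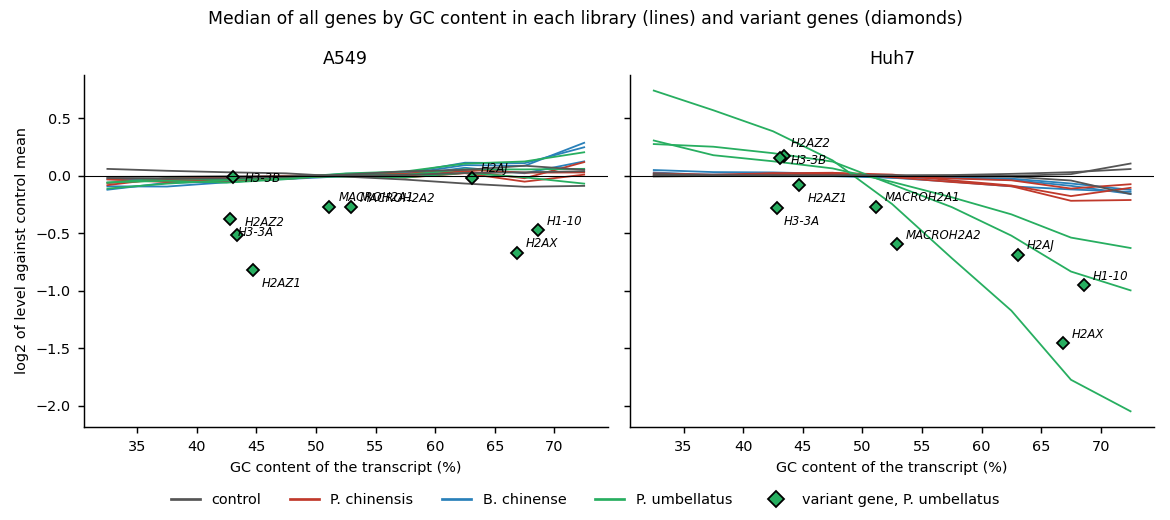
Median log2 difference from the control mean of all genes binned by GC content of the transcript (x axis, percent) in each library (lines, coloured by treatment), and the log2 fold changes of the 9 variants with P. umbellatus (diamonds), in A549 (left) and Huh7 cells (right). The Huh7 P. umbellatus lines fall from left to right, with medians of -0.38 to -1.28 for genes of at least 60% GC, and H2AX, H1-10 and H2AJ, the diamonds furthest right, lie at -1.46, -0.95 and -0.69, while the A549 lines stay near 0.

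Against the mean of the other herbs, P. chinensis gave higher H1-10 (0.83 ± 0.216, adjusted p = 0.0178) and H3-3B (0.24 ± 0.054, 0.00901) and lower H2AZ2 (-0.31 ± 0.062, 0.00478) in Huh7 cells, beside 21.8% of all genes (9.69% higher, 12.1% lower). H3-3B was lost without P. chinensis replicate 3 (adjusted p = 0.0595) and H1-10 without P. chinensis replicate 1 (0.0699) or 3 (0.0826). The H1-10 value takes in the P. umbellatus libraries above and was 0.34 (0.0117) after the GC and length correction.

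The responses of the lines differed for the H2A.Z genes with every herb. A549 minus Huh7, the log2 difference for H2AZ1 was -0.92 ± 0.177 under P. chinensis (adjusted p = 0.000644), -0.69 ± 0.178 under B. chinense (0.0124) and -0.66 ± 0.177 with P. umbellatus (0.00712). With limma voom the H2AZ1 value for P. umbellatus was -0.33 (0.0866), and with the GC and length correction, which bears on the Huh7 P. umbellatus libraries, it was -0.45 (0.0134). For H2AZ2 it was -0.54 ± 0.095 (0.00027), -0.54 ± 0.095 (0.000495) and -0.60 ± 0.095 (8.24e-05). Without that correction H1-10 passed with P. chinensis only (-0.97 ± 0.268, 0.0122), so 3, 2 and 2 of 9 were lower and 0 higher. Beside these, 19.6% of all genes differed with P. chinensis (9.3% lower, 10.3% higher), 11.6% with B. chinense (5.8% in each direction) and 34.4% with P. umbellatus (15.3% lower, 19.1% higher). With the correction 5, 3 and 3 members passed, and the shares of all genes are not reported here. The corrected H1-10 fold changes against control were -0.60 in A549 and 0.063 in Huh7 cells with B. chinense. With P. umbellatus they were -0.58 and 0.15. Whether these differ between the lines is not reported here. H3-3A and H3-3B gave differences of -0.014 and -0.080 with P. chinensis (SE 0.119 and 0.102), and none of their differences passed the test.

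The balance of the H3.3 genes moved the same way in both lines. The log2 ratio of H3-3A to H3-3B counts in A549 cells was 0.39, 0.44 and 0.53 in control, -0.16, -0.15 and -0.37 under P. chinensis, 0.26, 0.023 and -0.18 under B. chinense and 0.026, 0.11 and 0.13 under P. umbellatus. All 9 treated libraries were below all 3 controls, and the mean ratio was 0.45 ± 0.072 (SD, n = 3) in control and -0.033 ± 0.19 (n = 9) in treated libraries, a difference of -0.49 (two-sided exact permutation test of 220 splits, p = 0.00455, the smallest it can give, adjusted p = 0.0273 over 6 ratios). In Huh7 cells the ratio was -0.012, 0.039 and 0.10 in control, -0.67, -0.73 and -0.70 under P. chinensis, -0.19, -0.32 and -0.064 under B. chinense and -0.64, -0.33 and -0.24 under P. umbellatus. Here too the 9 treated libraries were below the controls, with a difference of -0.48 (exact permutation p = 0.0227, adjusted p = 0.0455). The test pools 3 extracts with 3 libraries each and treats all libraries of a line as exchangeable. The 9 treated libraries are not 9 replicates of 1 condition, which these p-values do not take into account. The P. chinensis group had the lowest mean in each line, -0.22 ± 0.13 (SD, n = 3) in A549 and -0.70 ± 0.030 in Huh7 cells, and its libraries overlapped those of B. chinense in A549 cells. Without any 1 control library in A549 cells the adjusted p of the exact permutation test was 0.0682, and in Huh7 cells it was 0.0606 without B. chinense replicate 2 or P. umbellatus replicate 2 and 0.0727 without control replicate 3, with differences of -0.52 to -0.44 throughout. With 2 controls left there are 55 splits and no exact permutation p below 0.0182, which is at most 0.109 after adjustment over 6 ratios. The A549 losses without a control library lie within that limit and say nothing about stability. In Huh7 cells the call held without control replicate 1 or 2, so the loss without control replicate 3 was not fixed by the number of splits. The canonical transcripts of the pair have 42.8% and 43.1% GC, and 1070 and 2705 bases. The ratio was not tested after the GC and length correction. In A549 cells that correction gave -0.34, -0.17 and -0.21 for H3-3A and 0.28, 0.17 and 0.064 for H3-3B, herbs ordered as above. In Huh7 cells it gave -0.52, -0.15 and -0.40 for H3-3A and 0.28, 0.043 and -0.029 for H3-3B. Of the 31-base words of H3-3A, 76.8% occur in other genes, and their part in the ratio was not tested.

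The H2AZ1 to H2AZ2 ratio fell in A549 cells by 0.21 on the log2 scale (8 of 9 treated libraries below all controls, exact permutation p = 0.0182, adjusted p = 0.0455) and differed by -0.033 in Huh7 cells (adjusted p = 0.841). MACROH2A1 to MACROH2A2 differed by 0.11 in A549 cells and -0.19 in Huh7 cells, neither past the test (adjusted p = 0.498 and 0.841). The A549 call for H2AZ1 to H2AZ2 was lost without any 1 control library. It was also lost without B. chinense replicate 1 or 2, or P. umbellatus replicate 1 or 3. The highest adjusted p of the exact permutation test was 0.182, without control replicate 2. The smallest p possible there, 0.0182, is at most 0.109 after adjustment over 6 ratios, so 0.182 lies above what the number of splits imposes. After the GC and length correction the A549 log2 fold changes were -0.76, -0.62 and -0.61 for H2AZ1 and -0.77, -0.52 and -0.45 for H2AZ2, closer to each other with each herb than without it. The canonical transcripts of the pair have 866 and 3026 bases. With differences in medians in place of means none of the 6 ratios passed. The sum of H3-3A and H3-3B was 513 to 533 CPM in control A549 cells and 431 to 493 in the treated ones, without overlap. In Huh7 cells it was 609 to 631 CPM in control, 604 to 643 under P. chinensis, 586 to 608 under B. chinense and 529 to 637 under P. umbellatus.

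**Figure D4:**
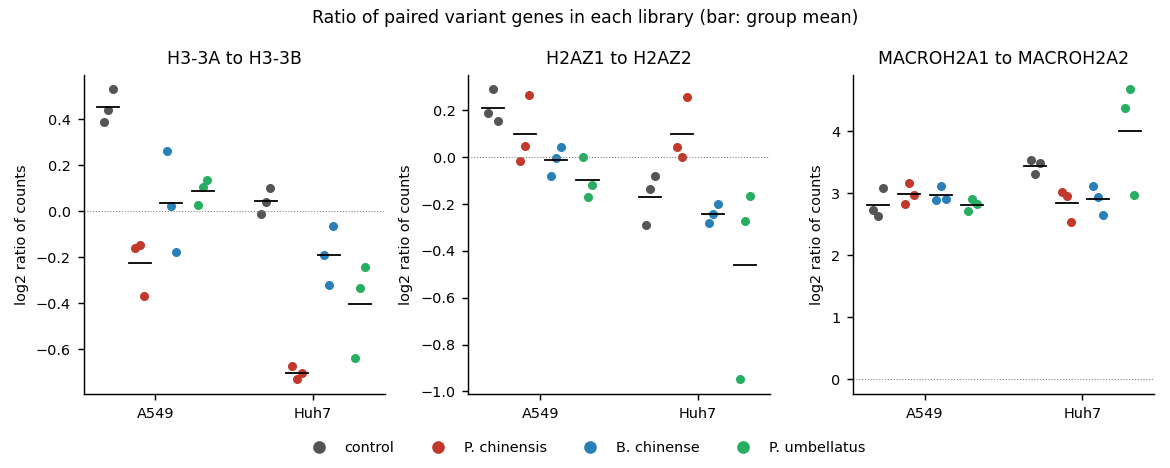
Log2 ratio of the counts of paired genes (y axis) in each library, by line (x axis) and treatment (colour), with a bar at the mean of 3 libraries. The H3-3A to H3-3B ratio of all 9 treated libraries lies below the 3 controls in either line, and the P. chinensis group has the lowest mean.

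Among the histones that are not members, the replication-dependent genes fell further in A549 cells. With P. chinensis 52 of 56 fell and 0 rose, with a median log2 fold change of -1.94, with B. chinense 52 fell (median -1.36) and with P. umbellatus 53 fell (median -1.44). In Huh7 cells 46, 4 and 52 of 61 fell, with medians of -0.82, -0.43 and -0.82. Of all genes 17.1%, 15.0% and 14.8% fell in A549 cells and 10.5%, 0.757% and 17.8% in Huh7 cells. The Huh7 P. umbellatus values come from the libraries of shifted GC content. Values of these genes after the GC and length correction are not reported here. With P. chinensis in A549 cells H2AZ1 and H2AX, both at -0.94, were each above 53 of these 56 genes. With P. umbellatus in Huh7 cells H2AX, at -1.46, was above 3 of 61, in the libraries of shifted GC content. CENPA, the centromeric H3 variant, fell in A549 cells with every herb, the values being -1.63 ± 0.179, -0.97 ± 0.174 and -0.90 ± 0.170 on the log2 scale (adjusted p = 6.77e-06, 0.000739 and 0.0011). Whether the share of cells in S phase moved these values was not tested.

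**Figure D5:**
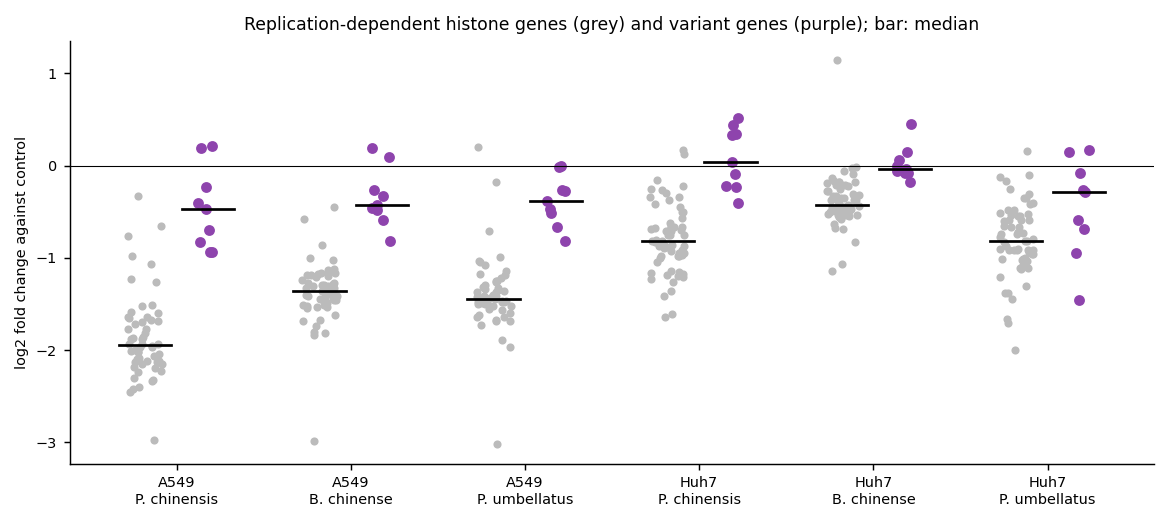
Log2 fold change against control (y axis) of each replication-dependent histone gene (grey, 56 in A549 and 61 in Huh7 cells) and each of the 9 variants (purple) in the 6 comparisons, with bars at the medians. The medians of the variants, -0.47, -0.43 and -0.38 in A549 cells, lie above those of the replication-dependent genes at -1.94, -1.36 and -1.44.

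Genes that handle the variants were read against the shares of all genes, which were 17.1%, 15.0% and 14.8% lower and 15.8%, 13.1% and 13.4% higher in A549 cells for the herbs in the order used above, and 10.5%, 0.757% and 17.8% lower and 10.5%, 0.519% and 19.3% higher in Huh7 cells. Of 12 genes of H2A.Z exchange, in A549 cells 6 fell under P. chinensis, 6 under B. chinense and 5 under P. umbellatus, and 1 rose each time. ANP32E, the chaperone that takes H2A.Z off chromatin, fell most (-1.23, -1.04 and -0.89), and ZNHIT1, a subunit of the SRCAP complex that deposits it, was the 1 that rose (0.58, 0.52 and 0.57). In Huh7 cells KAT5, the TIP60 acetyltransferase, rose with P. chinensis (0.34, adjusted p = 0.0304) and no gene of the list fell. With P. umbellatus 5 fell and 1 rose, which was ANP32E (0.28, outside the naming rule and named after its value was seen).

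Of 10 genes of H2AX signalling, 3, 3 and 4 fell and 0 rose in A549 cells, beside 17.1%, 15.0% and 14.8% of all genes that fell. MDC1, the reader of phosphorylated H2AX, changed by -0.91, -0.79 and -0.77, and PRKDC, a kinase of H2AX, by -0.52, -0.40 and -0.38 on the log2 scale. In Huh7 cells 3 fell with P. chinensis, led by the kinase ATR (-1.12, adjusted p = 0.000292), beside 10.5% of all genes that fell. With B. chinense 0 changed. With P. umbellatus 2 fell and 1 rose, near the shares of all genes (17.8% lower, 19.3% higher).

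Of 7 genes of H3.3 deposition, 2, 1 and 2 fell in A549 cells, close to the shares of all genes, and the counts are no result about the list. ASF1A, which hands H3.3 to HIRA, fell with P. chinensis (-0.33) and P. umbellatus (-0.35), and in Huh7 cells with P. chinensis (-0.40). The other call in A549 cells was DAXX, named after its values were seen. It had 27, 29 and 31 counts in the controls and 0 to 10 in the treated libraries, too few for a level, against 179 to 1002 in Huh7 cells.

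A list of replication-coupled and general histone chaperones fell in A549 cells, 12 of 13 genes with each herb. The medians were -0.76, -0.61 and -0.64, and CHAF1A of the CAF-1 complex was among the genes that fell (-1.39, -1.17 and -0.92). In Huh7 cells 7, 0 and 4 fell and 0, 0 and 1 rose. Of 7 genes that process stem-loop histone mRNA, 4 fell with each herb in A549 cells, SLBP among them (-0.61, -0.48 and -0.41), and 4 rose with P. umbellatus in Huh7 cells. In these Huh7 libraries genes of low GC content were shifted up, and its part in these calls was not tested.

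Genes whose levels tracked a variant over the 12 libraries of a line are given as a description, since the points share groups and depth. Among 10865 genes in A549 cells the closest to H2AZ1 was H2BC12, a replication-dependent H2B gene (Pearson r of log2 CPM = 0.995, n = 12). ARL6IP1 was closest to H2AZ2 (0.996), CS to H2AX (0.980), H2AC15 to H1-10 (0.977) and TXNDC12 to H3-3A (0.975). Among 11255 genes in Huh7 cells CKS1B, a cofactor of cyclin-dependent kinases, was closest to H3-3A (0.962) and FAHD1 to H3-3B (0.964). APRT was closest to H2AX there (0.995), a value that takes in the P. umbellatus libraries of shifted GC content.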

How the data were processed

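Total RNA of 24 libraries was depleted of ribosomal RNA and sequenced with a stranded kit. The authors estimated counts with kallisto on GRCh38.p13 transcripts, kept protein-coding genes above a low mean, and the deposited values are estimated counts for each gene, whole and not normalized. How transcripts were summed and rounded is not given in the sources used here. Columns were matched to samples by name. Here 1 gene with no annotated type was left out. Per line, genes with a mean above 5 counts over 12 libraries (13633 in A549, 13875 in Huh7 cells) were fitted in R 4.3.3 with edgeR 4.0.16 (TMM, quasi-likelihood, prior count 0.125, 1 coefficient per group), two-sided, with an adjusted p below 0.05 as the threshold. Differences between lines were tested as interactions over 24 libraries. CPM were scaled by TMM, so they are relative and not absolute amounts. Positions, lengths and GC content came from GENCODE v44. Ratios of paired genes were compared by exact permutation between control and treated libraries of a line, with the 3 extracts pooled. Members, lists and tests were chosen with earlier results of these data known. All members were named in each comparison, and from each list up to 3 called genes of largest change with a mean of at least 50 counts, plus CENPA and the closest genes by correlation; some genes under this rule are not reported here. Alternatives were DESeq2 1.42.0, limma 3.58.1 voom with quality weights, other normalizations and filters, the replicate number as a block, a GC and length correction, fits of 6 libraries and leaving out each library. The fits were tested on simulated data. Replicate numbers did not pair the samples.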

Additional observations from a re-analysis of the deposited data

Results flagged for a closer look

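The response to an extract differed between the lines in 7 cases by the test of the difference itself (edgeR's quasi-likelihood interaction test with Benjamini-Hochberg adjustment, A549 minus Huh7 on the log2 scale). H2AZ1 gave -0.92 (P. chinensis), -0.69 (B. chinense) and -0.66 (P. umbellatus), and H2AZ2 gave -0.54, -0.54 and -0.60. In each of these the gene fell in A549 cells, and in Huh7 cells H2AZ1 did not pass the test with any herb and H2AZ2 passed it with P. chinensis only. H1-10 gave -0.97 with P. chinensis, with -0.70 in A549 and 0.33 in Huh7 cells. The H2AZ1 difference with P. umbellatus was -0.33 (adjusted p = 0.0866) with limma voom and quality weights, and -0.48 (0.0208) without Huh7 P. umbellatus replicate 2.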

How the results depend on the processing

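Of the alternatives, 345 values that answer a comparison kept their direction and side of the threshold (counts stayed within 1.5 times). Of the others 18 counts moved further, 19 ratio values lost a call and 2 turned sign. Among values of single genes 1539 kept direction and side, while 60 lost a call, 24 gained one and 27 turned sign. In every comparison not named here the count of members called stayed within 1.5 times. In Huh7 cells with P. chinensis it was 6 with limma voom and in a fit of the 6 libraries alone, and 1 to 4 when single libraries were left out. With B. chinense it was 1 in the fit of 6 libraries. With P. umbellatus it was 1 after the GC and length correction, 0 in the fit of 6 libraries, and 1 to 6 when single libraries were left out. For P. chinensis against the mean of the other herbs it was 0 to 3 in A549 and 1 to 6 in Huh7 cells without single libraries, and 7 with limma voom in Huh7 cells. For the difference between lines with P. chinensis it was 5 with limma voom and with the GC and length correction and 3 to 5 without single libraries, and with P. umbellatus 2 to 5. The cause was not tested. The ratios of H3-3A to H3-3B in A549, H2AZ1 to H2AZ2 in A549 and H3-3A to H3-3B in Huh7 cells were -0.42, -0.19 and -0.37 as differences in medians, and without single libraries -0.52 to -0.45, -0.25 to -0.17 and -0.52 to -0.44. With the replicate number as a block they were -0.49, -0.21 and -0.48 with an adjusted p of 0.0938, so none passed. The block allows no exact permutation p below 0.0156. Adjusted over 6 ratios, that p can fall below 0.0938 where several ratios share it, so a pass was possible. The numbers do not pair the samples (correlations of same-numbered samples -0.13 to 0.11), and the block kept every count of members called within 1.5 times. H2AZ1 to H2AZ2 in Huh7 cells ran from -0.093 to 0.061, turning sign at 0.011 without control replicate 3 and 0.061 without P. umbellatus replicate 1. Signs also turned for single genes. In A549 cells with P. umbellatus these were H2AJ, at 0.022 with upper quartile scaling, 0.19 with the GC and length correction and -0.29 to 0.14 without single libraries, and H3-3B, at 0.030 with upper quartile scaling, 0.0059 with no filter, 0.0010 with filterByExpr, 0.064 with the GC and length correction, 0.0011 in the fit of 6 libraries and -0.089 to 0.035 without single libraries. In Huh7 cells they were H2AZ1 with P. chinensis (-0.092 with the GC and length correction, -0.034 to 0.057 without single libraries), and with B. chinense H2AZ2 (0.013 with upper quartile scaling, -0.039 to 0.018 without single libraries), H2AX (0.061 with the GC and length correction, -0.11 to 0.030) and H1-10 (0.063, -0.16 to 0.037). With P. umbellatus H2AZ1 ran from -0.26 to 0.13 without single libraries, and the GC and length correction gave -0.018 for H2AZ2 and -0.029 for H3-3B, and turned H1-10, called at -0.95, to 0.15 and H2AJ, at -0.69, to 0.18. H2AJ and MACROH2A2, the members of lowest count, have wide errors, and so have H2AX and H1-10 with P. umbellatus in Huh7 cells.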
